A study of Mus musculus with 6 samples.

Results

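Antiviral TRIM genes are members of the tripartite motif (TRIM) family that restrict viruses or tune the sensing of viral nucleic acid. The set consisted of 10 genes, Trim12a, Trim12c, Trim14, Trim21, Trim25, Trim30a, Trim30b, Trim30c, Trim30d and Trim34a, matched by symbol among the 54752 genes counted in each library. RNA-seq was performed on the whole right hippocampus of C57BL/6J male mice, WT in genotype and 14 weeks old, with 1 library from each mouse. In the BCAS group (bilateral carotid artery stenosis, n = 3), microcoils were placed around both common carotid arteries, the narrower on the right. In the sham group (n = 3), the operation was performed without microcoils. All hippocampi were taken 3 weeks after surgery. The question was how chronic cerebral hypoperfusion changed the RNA of these genes in the hippocampus. Each library is a mixture of all hippocampal cells, so that more cells of a type and more RNA per cell cannot be told apart.

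TRIM proteins share an amino-terminal RING, B-box and coiled-coil arrangement, and most act as ubiquitin ligases. Many are induced by interferons. TRIM25 ubiquitinates the viral RNA sensor RIG-I, and TRIM14, which lacks a RING domain, acts as an adaptor at the mitochondrial protein MAVS downstream of RIG-I. TRIM21 is the cytosolic receptor for antibody bound to a virus and was first known as the autoantigen Ro52. Trim12a, Trim12c, Trim30a to Trim30d and Trim34a belong to a mouse gene cluster related to Trim5, whose primate relative blocks retroviral capsids. TRIM30a has also been described as a brake on NF-κB signalling through TAB2 and TAB3. In the brain, microglia are the resident macrophages and the main cells equipped for such responses.

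Library totals lay between 29652456 and 35607098 counts, of which the 10 genes together took 883 to 983 in the sham group and 3408 to 6135 in the BCAS group. Values are given in CPM, read counts scaled to library size by edgeR's TMM method. The detection limit was set at 3 counts for a gene in a library, equal to 0.0874 to 0.0994 CPM, and it covers counting error only. BCAS mouse 3 had the highest CPM of all 6 mice for each of the 10 genes, as it had for 27.2% of the 18617 genes tested and for 1311 (83.2%) of the 1576 genes that were higher in BCAS by the thresholds below. It was kept, and results are also given without it. A gene passed the test at an adjusted P under 0.05 (edgeR quasi-likelihood test, Benjamini-Hochberg adjustment over all genes tested) and was called a DEG where its log2 fold change also exceeded 1 in either direction. The text gives log2 fold changes as BCAS minus sham.

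Promoter sequences are shown because the genes moved together and are known as interferon-induced. RefSeq (build GRCm38.p6) gave promoter windows, 250 bases before to 50 after a gene's start, for 9 of the 10 genes, namely 10 windows, as Trim30a had a second start. The interferon-stimulated response element (ISRE), bound by IRF factors after type I interferon, was searched on both strands by its core, which is GAAA, any 2 bases and GAAA again. It was found in 7 of the 10 windows, belonging to 6 genes, against 1131 of all 32851 promoter windows of this length (3.44%) and 3 of 57 windows of the other TRIM genes. The gamma-activated site (GAS), an element of genes that respond to interferon gamma, was searched by its letters TTCNNNGAA, which read alike on both strands. It was found in 1 of the 10 windows, that of Trim30c, against 2726 of 32851 (8.3%) and 6 of 57 windows of the other TRIM genes. A match is a run of letters and was not tested as a site. The inner parts of 7 windows, 70 bases before to 50 after the start, follow with the motif in capitals.
Trim21: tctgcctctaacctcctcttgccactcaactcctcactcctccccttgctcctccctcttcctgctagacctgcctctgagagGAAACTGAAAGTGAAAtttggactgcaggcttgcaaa
Trim34a: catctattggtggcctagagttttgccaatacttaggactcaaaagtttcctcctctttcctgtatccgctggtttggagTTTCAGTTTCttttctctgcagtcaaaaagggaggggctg
Trim12a: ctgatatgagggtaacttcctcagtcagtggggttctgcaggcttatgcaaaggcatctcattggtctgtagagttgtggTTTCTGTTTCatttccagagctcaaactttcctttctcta
Trim12c: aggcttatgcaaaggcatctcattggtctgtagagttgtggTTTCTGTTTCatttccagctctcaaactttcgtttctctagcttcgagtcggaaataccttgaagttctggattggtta
Trim30a: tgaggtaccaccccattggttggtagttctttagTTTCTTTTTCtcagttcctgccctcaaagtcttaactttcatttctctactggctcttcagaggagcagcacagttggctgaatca
Trim30d: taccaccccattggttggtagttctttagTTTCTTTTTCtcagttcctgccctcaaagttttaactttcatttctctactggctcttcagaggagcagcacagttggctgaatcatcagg
Trim30c: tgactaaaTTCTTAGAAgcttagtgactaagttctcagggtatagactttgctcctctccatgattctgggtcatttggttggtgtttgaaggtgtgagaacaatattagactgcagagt

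In these windows the first base of the RefSeq transcript is counted as 1 and bases before it are negative. Trim21, at chr7:102565433-102565552 on the minus strand, held 2 overlapping matches, beginning at 14 and 20, just inside the transcript. Trim34a, at chr7:104244387-104244506 on the plus strand, and Trim12a, at chr7:104315446-104315565 on the minus strand, each held a match at 11. In Trim12c, at chr7:104353300-104353419 on the minus strand, the match lay at -29, before the start. Its printed window shared an identical run of 59 bases with that of Trim12a, which included the match in both. The windows of Trim30a, at chr7:104465144-104465263, and of Trim30d, at chr7:104507800-104507919, both on the minus strand, held the match at -36 and -41. It lay in a run of 59 bases that was identical between both printed windows and was 118 bases long in the full windows. The second Trim30a window, around a start 19068 bases inside the gene, also held a match, at 3. Trim30c, at chr7:104400729-104400848 on the minus strand, carried the GAS letters at -62. The 300-base windows of Trim25 and Trim30b contained neither motif, and the RefSeq start of Trim30b lay 11238 bases inside the gene model of the count tables. Matches shared between the Trim30 copies and between the Trim12 copies are not independent, since their sequences are near copies.

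The antiviral TRIM genes rose in the BCAS hippocampus. Of the 10 genes, 9 could be tested, and 9 of these passed the test as higher in BCAS, where 18% of all tested genes were called in this direction and 31.3% in either. By the fold threshold 9 were also DEGs, where 8.47% of tested genes were DEGs higher in BCAS. All 10 genes, including the untested Trim30c, had every BCAS mouse above every sham mouse, which was the case for 25.3% of tested genes. Trim30b was kept by the filter on low counts through its BCAS libraries alone and so had to differ. Without it, 8 of 8 tested genes passed and were DEGs, with a median log2 fold change of 2.17. The median log2 fold change of the 9 tested genes was 2.19, against 0.018 for all genes tested. It was 2.17 with Trim30c set at the ratio of its BCAS mean to the detection limit. With BCAS mouse 3 left out, 9 of 9 tested genes still passed and their median was 1.985.

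**Figure D1:**
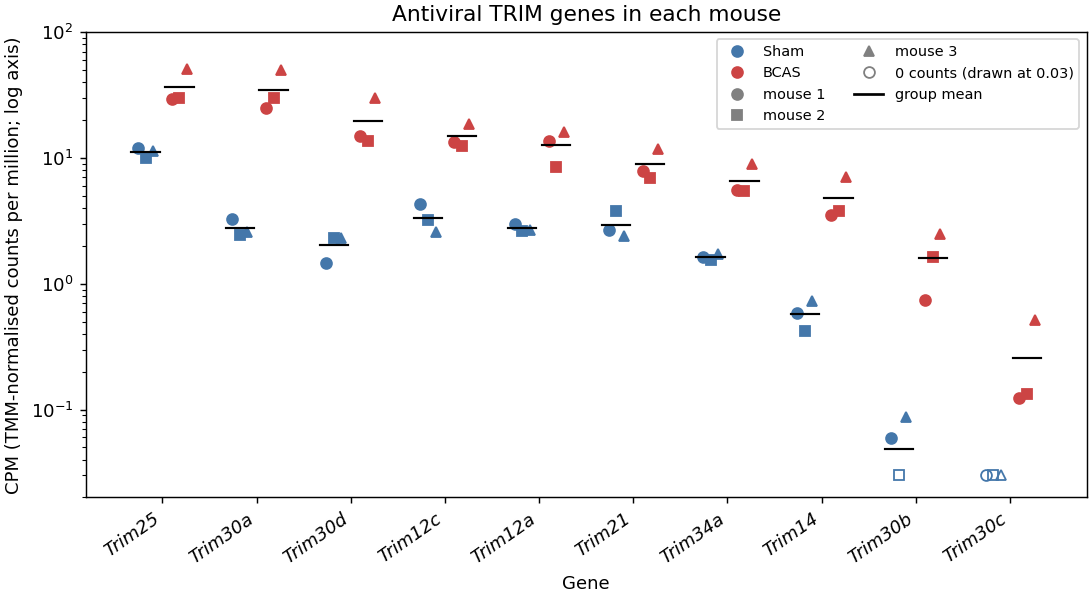
Level of each antiviral TRIM gene in each mouse, in TMM-normalised CPM on a log axis. Blue symbols are the 3 sham mice and red symbols the 3 BCAS mice, symbol shapes are mouse numbers, lines are group means and open symbols are libraries with 0 counts. All red symbols lie above all blue symbols of the same gene, and BCAS mouse 3 is the highest for each gene.

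Trim25 (ENSMUSG00000000275.16, mm10 chr11:88999376-89020293, plus strand), the ligase of RIG-I, was the most abundant of the set in sham mice. It measured 12.03, 10.1 and 11.3 CPM in sham mice 1 to 3, and 29.7, 30.2 and 51.0 CPM in BCAS mice 1 to 3. The sham mice were close together and BCAS mouse 3 stood well above the other BCAS mice. The group means were 11.1 ± 0.985 CPM (SD, n = 3) and 37.0 ± 12.1 CPM (SD, n = 3), a log2 fold change of 1.73 (SE 0.21, edgeR adjusted P = 4.63e-04).

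Trim14 (ENSMUSG00000039853.18, chr4:46493781-46536141, minus strand), the MAVS adaptor, was scarce in sham mice, at 0.590, 0.419 and 0.728 CPM. It reached 3.51, 3.78 and 7.11 CPM in BCAS mice 1 to 3, all far above the sham range. The log2 fold change was 3.04 (SE 0.36, edgeR adjusted P = 4.37e-04), among the 4 largest of the set. Its level is uncertain because 1650 of its 4338 exonic bases (38.0%) lie within exons of other genes, mostly those of Nans on the opposite strand. The counting ignored strand and did not assign reads shared by 2 genes, so reads from the overlap are missing and its level per length is understated.

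Trim21 (ENSMUSG00000030966.13, chr7:102557921-102565486, minus strand), the antibody receptor, had the smallest log2 fold change of the 9 tested genes. It measured 2.65, 3.77 and 2.39 CPM in sham mice and 7.90, 6.92 and 11.9 CPM in BCAS mice. The highest sham mouse remained below the lowest BCAS mouse. The log2 fold change was 1.6 (SE 0.26, edgeR adjusted P = 0.00218). It was the only tested gene of the set that missed the threshold when the test asked for a change of more than 1 on the log2 scale (glmTreat, adjusted P = 0.109).

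The remaining 7 genes lie together on chromosome 7. Trim30a (ENSMUSG00000030921.17, chr7:104409025-104465193, minus strand), the NF-κB brake, measured 3.27, 2.42 and 2.59 CPM in sham mice 1 to 3. In BCAS mice 1 to 3 it measured 24.8, 30.1 and 50 CPM. All BCAS mice exceeded the sham mice several times over. The sham mean was 2.76 ± 0.450 CPM (SD, n = 3) and the BCAS mean 34.95 ± 13.3 CPM (SD, n = 3). The log2 fold change was 3.66 (SE 0.28, edgeR adjusted P = 4.05e-05). This adjusted P was the lowest of the set.

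Trim30d (ENSMUSG00000057596.13, chr7:104470014-104507849, minus strand), its neighbour, measured 1.47, 2.30 and 2.30 CPM in sham mice and 15.01, 13.7 and 30.05 CPM in BCAS mice. BCAS mouse 3 stood above the other BCAS mice, and the groups were far apart. The log2 fold change was 3.27 (SE 0.34, edgeR adjusted P = 1.83e-04). Trim30a and Trim30d are near copies, but of all 150-base stretches of their transcripts 3.24% and 3.23% were identical between them. Reads from such stretches align to several places and were not counted.

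Trim30b (ENSMUSG00000052749.9, chr7:104355382-104369884, minus strand) was at or under the limit of detection in all sham mice, with 2, 0 and 3 counts. It had 24, 49 and 77 counts in BCAS mice 1 to 3. The ratio of the pooled counts, scaled to library size, was 32.5 (95% exact interval 13.6 to 101, counting error only). Mates of a pair were counted separately, which the interval ignores, so that it is too narrow. The fitted log2 fold change was 4.93 (SE 0.75, edgeR adjusted P = 0.00163). This depends on the prior count, and as the gene entered the test through BCAS alone, the P is no support for a difference.

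Trim30c (ENSMUSG00000078616.2, chr7:104382065-104400837, minus strand) had 0 counts in each sham mouse and 4, 4 and 16 counts in BCAS mice 1 to 3. These are few reads, and mates of a pair were counted separately. The gene did not pass the filter on low counts and was not tested. With 3 counts taken as the limit in each sham library, its observed BCAS mean was 2.89 times this limit. Without BCAS mouse 3, which held 16 of the 24 counts, it was 1.44 times the limit. These ratios leave out the counting error of the BCAS counts, so they are not firm lower bounds. With no filter its edgeR adjusted P was 0.0106. This is not taken as support for a difference, since the counts were few and included mates counted separately.

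Trim12a (ENSMUSG00000066258.13, chr7:104299894-104315466, minus strand) measured 3.01, 2.63 and 2.68 CPM in sham mice and 13.6, 8.48 and 16.0 CPM in BCAS mice. Its BCAS mouse 2 was the lowest of the group. Trim12c (ENSMUSG00000057143.15, chr7:104338754-104353362, minus strand) measured 4.28, 3.23 and 2.56 CPM in sham mice and 13.5, 12.5 and 18.6 CPM in BCAS mice. The 2 copies rose by similar amounts, with log2 fold changes of 2.19 (SE 0.24, edgeR adjusted P = 2.32e-04) and 2.15 (SE 0.23, edgeR adjusted P = 2.08e-04). Stretches identical with other transcripts were few, 0.382% in Trim12a and 2.54% in Trim12c, all with Trim5.

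Trim34a (ENSMUSG00000056144.14, chr7:104244457-104262234, plus strand) varied little among sham mice. It measured 1.62, 1.56 and 1.72 CPM in sham mice and 5.54, 5.43 and 8.91 CPM in BCAS mice. The log2 fold change was 2.02 (SE 0.24, edgeR adjusted P = 4.48e-04). Of its exonic bases, 609 (23.5%) overlap an antisense gene, Gm47248, that had 0 counts in all libraries, and 24.3% of its 150-base stretches were shared with that gene or with the copy Trim34b. Its level is therefore uncertain.

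Compared per length of transcript, the order of the genes differed between the groups. In sham mice, Trim25 led at 1.93 RPKM (CPM per kilobase of exon), its range above that of Trim12c at 0.897 RPKM. Trim21 (0.791), Trim30a (0.672), Trim34a (0.630), Trim30d (0.539) and Trim12a (0.480 RPKM) followed, each overlapping the range of its neighbour. Trim14 (0.133 RPKM) lay below them with no overlap, and Trim30b (0.00648 RPKM) below Trim14. In BCAS mice, Trim30a had the highest mean at 8.50 RPKM, followed by Trim25 at 6.42 and Trim30d at 5.21 RPKM, with overlapping ranges. Below these came Trim12c (3.98), Trim34a (2.56), Trim21 (2.40), Trim12a (2.19) and Trim14 (1.11 RPKM), again with neighbours overlapping. Only Trim14 and Trim30b (0.214 RPKM) were separated, and Trim30c was lowest at 0.149 RPKM.

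The make-up of the summed RNA shifted from Trim25 towards Trim30a and Trim30d. The summed level was 5.84 to 6.43 RPKM in sham mice, against 26.2 to 45.7 RPKM in BCAS mice. Trim25 took 29.3% to 33.6% of the sum in sham mice, against 19.4% to 20.1% in BCAS mice. Trim30a took 9.85% to 12.4% in sham mice but 22.8% to 28.0% in BCAS mice. Trim30d took 6.10% to 10.5% and then 13.9% to 17.5%, while the mean share of Trim21 went from 13.0% to 7.40%. Trim34a took 9.74% to 11.4% in sham mice but 7.52% to 8.10% in BCAS mice, and Trim14 1.61% to 2.88% and then 3.06% to 3.59%. The ranges of shares did not overlap between the groups for any gene but Trim12a and Trim12c, with Trim30b and Trim30c at or under the detection limit in sham mice. Shares in a library add up to the whole, so larger shares of some genes lower those of others, even where their levels rose. The genes are thus not separate observations here. These shares were not tested, and with 3 mice against 3 an exact permutation test cannot go below P = 0.1. BCAS mouse 3, the highest in level, did not stand apart in the shares of Trim25 and Trim30a.

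**Figure D2:**
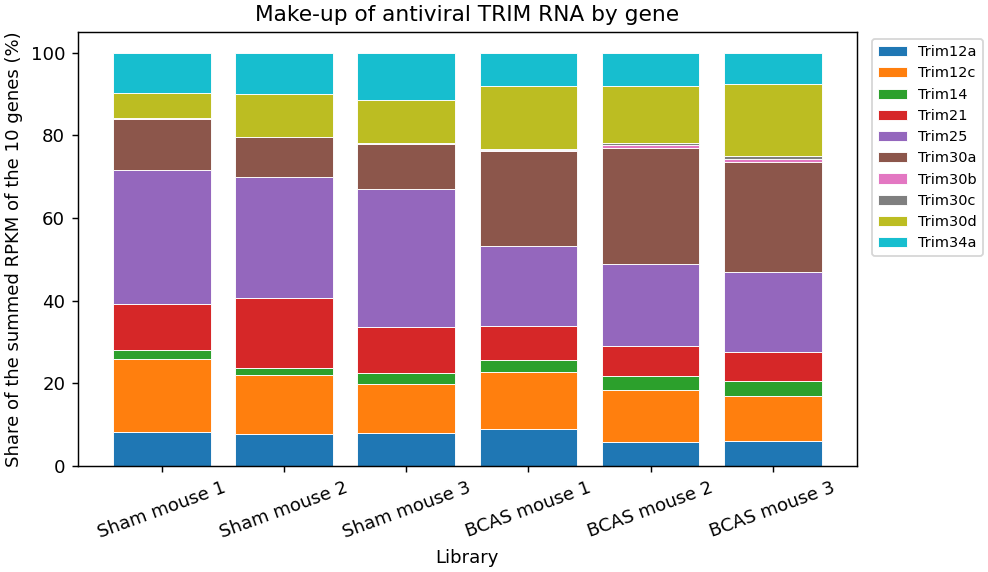
Share of each antiviral TRIM gene in the summed RPKM of the 10 genes, in percent, for each of the 6 libraries. Trim25 takes a smaller part and Trim30a and Trim30d a larger part of the column in each BCAS mouse than in each sham mouse.

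The genes of the chromosome 7 cluster were then examined by position. From Trim34a to Trim30d it spans chr7:104244457-104507849 (mm10), 263 kb with 16 annotated genes. The tested genes of this stretch were 7, Trim34a, Trim5, Trim12a, Trim12c, Trim30b, Trim30a and Trim30d, and 7 of 7 were DEGs higher in BCAS, where 8.47% of all tested genes were. Of these 7, 6 belong to the set already counted and Trim5 does not, and Trim30b entered the test through its BCAS libraries alone. Trim5, which is not among the 10, measured 1.00, 0.508 and 1.165 CPM in sham mice and 3.57, 3.81 and 5.67 CPM in BCAS mice. Its groups did not overlap, and its log2 fold change was 2.28 (SE 0.34, edgeR adjusted P = 0.00146). The other 9 genes, Trim30c among them, had at most 16 counts in any library and were not tested. Trim34b had 15 counts in BCAS mouse 1 and at most 3 in every other library, so BCAS mouse 3 was not the highest there. Fold changes were larger for the 3 tested Trim30 copies (3.27 to 4.93) than for Trim34a, Trim5, Trim12a and Trim12c (2.02 to 2.28), a difference between genes that was not tested.

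**Figure D3:**
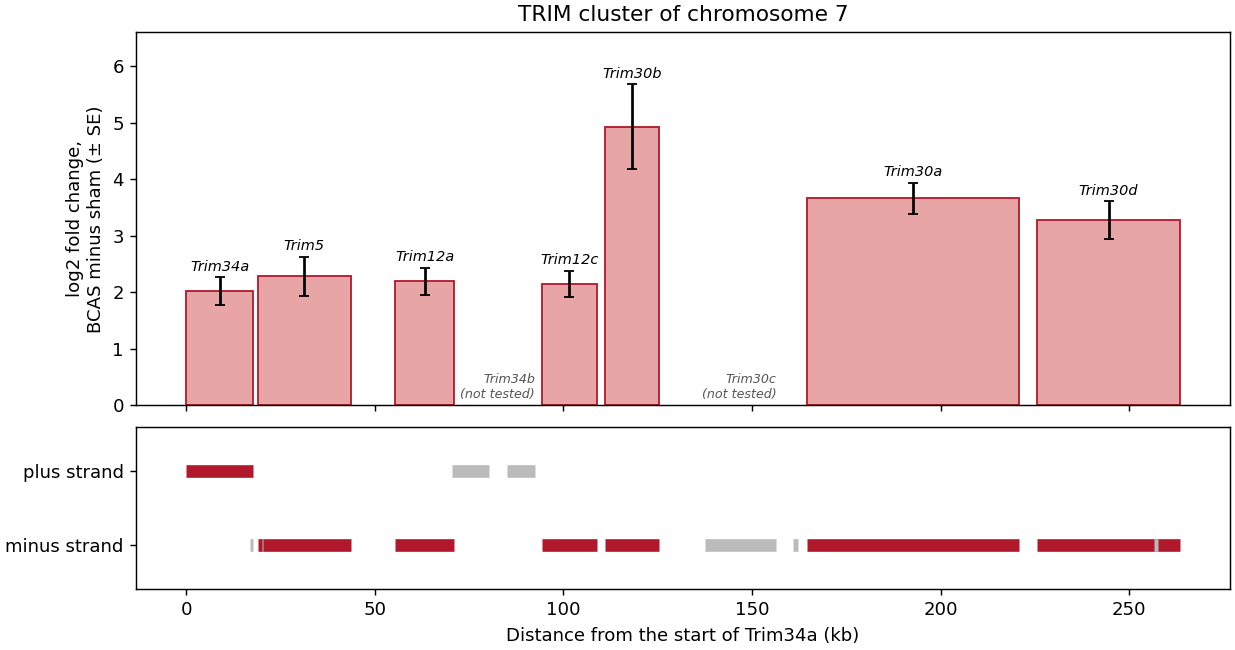
The TRIM cluster of chromosome 7, with distance from the start of Trim34a in kb. Upper panel, log2 fold change of each tested gene (bars as wide as the gene, error bars ± SE), and lower panel, gene positions by strand, tested genes in red and untested genes in grey. The tested genes are all higher in BCAS, from 2.02 for Trim34a to 4.93 for Trim30b.

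Most other TRIM genes did not rise. Besides the 10, 59 genes had a TRIM symbol and 39 were tested. Of these, 5 passed the test as higher in BCAS and 10 as lower, against 18% and 13.2% of all genes tested, and 24 did not pass. The number passing as lower became 6, 4 and 3 without sham mouse 1, 2 or 3, and 6 without BCAS mouse 1. The median log2 fold change of the 39 was -0.011, near that of all genes. The groups did not overlap for 21 of the 39, where 48% of all tested genes had no overlap in either direction. The 5 that rose were Trim5, Trim47 (1.48, SE 0.19, edgeR adjusted P = 5.68e-04), Trim56 (1.41, SE 0.17, edgeR adjusted P = 5.00e-04), Trim65 (0.89, SE 0.17, edgeR adjusted P = 0.00447) and Trim26 (0.56, SE 0.11, edgeR adjusted P = 0.00618). TRIM56 is known as an interferon-induced ligase that acts on STING, and TRIM65 as a ligase of the RNA sensor MDA5.

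Among the 10 TRIM genes that passed as lower, Trim2, a ligase of neurons, had the lowest log2 fold change. It measured 551, 488 and 502 CPM in sham mice and 355, 334 and 270 CPM in BCAS mice. All BCAS mice lay below the sham mice, and the log2 fold change was -0.69 (SE 0.11, edgeR adjusted P = 0.00262). The next lowest of these were Trim9 (-0.49), Trim37 (-0.46), Trim32 (-0.42) and Trim46 (-0.41), with edgeR adjusted P of 0.0104, 0.00632, 0.0203 and 0.0309. Trim2, Trim9 and Trim46, with Trim3 and Trim67, formed a list of TRIM genes of neurons, of which 4 of 5 fell (median -0.41), where 13.2% of all tested genes did. Without sham mouse 1, 2 or 3, Trim46 no longer passed (edgeR adjusted P = 0.0926, 0.054 and 0.106). Trim46 was also lost with the replicate number as a block (0.0563). Trim32 was lost without sham mouse 1, 2 or 3 (0.05, 0.0637 and 0.0767) and without BCAS mouse 1 (0.0581), but passed with the block (0.0316). Without sham mouse 3, the other TRIM genes that passed as lower were 3, namely Trim2, Trim9 and Trim37. Of the neuronal list, Trim3 thus lost its call there as well as Trim46. Of the 3 transcriptional corepressors Trim24 (-0.080), Trim28 (-0.13) and Trim33 (-0.23), Trim33 passed as lower, against the same 13.2%. Trim33 too lost its call without sham mouse 3.

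**Figure D4:**
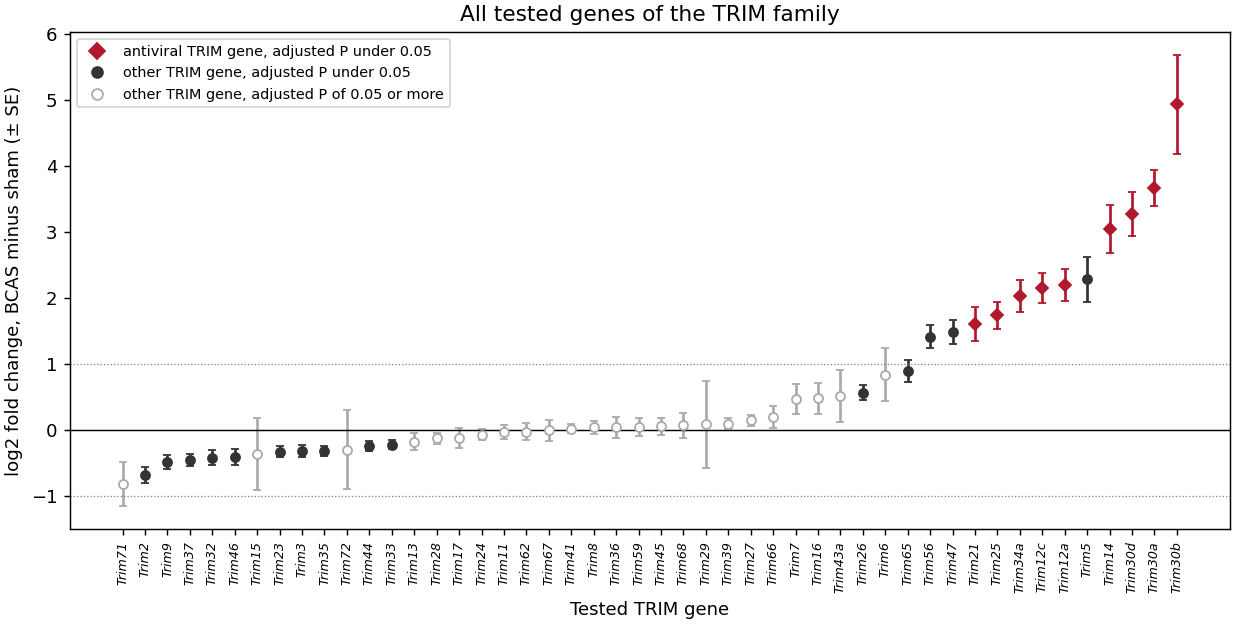
Log2 fold change (BCAS minus sham, ± SE) of the 48 tested TRIM genes in ascending order. Red diamonds are the antiviral TRIM genes, filled circles other TRIM genes with an adjusted P under 0.05 and open circles those at 0.05 or more, with dotted lines at 1 and -1. The red diamonds occupy the upper end, from 1.6 for Trim21 to 4.93 for Trim30b, with Trim5 among them.

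The pathways in which these proteins act were described by lists. Genes of the lists other than the DEGs are named here after their values were seen. In the RIG-I and MAVS pathway, 9 of 17 genes rose, 2 fell and 6 did not pass, where 18% of all tested genes rose and 13.2% fell. The median was 0.67. The 7 DEGs were the sensors Rigi (2.002), Ifih1 (2.03) and Dhx58 (3.05), the cofactor Zc3hav1 (1.66), the adaptor Mavs (1.04), the kinase Ikbke (2.30) and the transcription factor Irf7 (4.31). Irf7, the master factor of type I interferon genes, went from 2.65, 2.72 and 2.10 CPM in sham mice to 35, 30.9 and 82.4 CPM in BCAS mice. BCAS mouse 3 was again the highest. Rnf135, a further ligase of RIG-I, rose by less (0.67, SE 0.18, edgeR adjusted P = 0.0246), as did Irf3 (0.55). The 2 that fell, a share near that of all genes, were the deubiquitinases Cyld (-0.40), which acts on RIG-I, and Usp15 (-0.20), which acts on TRIM25. Without sham mouse 1, 8 rather than 11 genes of the list passed. The 7 DEGs were among the 8, so that most of Rnf135, Irf3, Cyld and Usp15 lost their calls. The kinase Tbk1 (-0.045) and the adaptors Traf3 (-0.023) and Traf6 (0.19) did not pass.

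Of the 7 partners of TRIM21, 4 fell, where 13.2% of all tested genes did, and 3 did not pass, with a median of -0.33. Those that fell were the ubiquitin-conjugating enzymes Ube2w (-0.47, SE 0.091, edgeR adjusted P = 0.00544), Ube2n (-0.46) and Ube2v2 (-0.46) and the proteasome subunit Psmd14 (-0.33). The unfoldase Vcp (-0.0056) and the autoantigens Ro60 (0.18) and Ssb (-0.19) did not pass. Without sham mouse 3, 2 rather than 4 partners passed.

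Of the targets of TRIM14 and TRIM30a, 5 of 9 rose, 1 fell and 3 did not pass, against 18% and 13.2% of all tested genes that rose and fell. The median was 0.55. The 4 DEGs were the DNA sensor Cgas (1.14, SE 0.23), its downstream protein Sting1 (2.25, SE 0.21) and the NF-κB subunits Nfkb1 (1.11, SE 0.14) and Nfkb2 (1.95, SE 0.27). Tab2, a target of TRIM30a, rose by 0.55 (SE 0.071, edgeR adjusted P = 6.82e-04), while its partner Tab3 did not pass (-0.16, SE 0.099). The 1 that fell, a share near that of all genes, was Usp14, the deubiquitinase that TRIM14 brings to cGAS (-0.48, SE 0.11, edgeR adjusted P = 0.0116).

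In interferon signalling, 12 of 14 tested genes rose, where 18% of all tested genes did, and 2 did not pass. The median was 1.12. Among the 8 DEGs were the receptor chains Ifnar2 (1.21) and Ifngr1 (1.66), the transcription factors Irf1 (1.34), Irf8 (4.02) and Irf9 (1.898), and the feedback inhibitors Usp18 (3.64) and Socs1 (1.04). Without BCAS mouse 3, the log2 fold changes of Mavs (0.89), Cgas (0.98), Nfkb1 (0.96) and Socs1 (0.95) were below 1, so that these were no longer DEGs, though Mavs, Cgas and Nfkb1 still passed the test. Socs1 lost its call without sham mouse 1, without sham mouse 2 or without BCAS mouse 3 (adjusted P = 0.0575, 0.0641 and 0.0541). Irf8 is also a lineage factor of microglia. The interferons themselves were at the limit of detection: Ifnb1 had 0 counts in 5 libraries and 2 in BCAS mouse 3, and Ifng had 2 counts in BCAS mice 1 and 2 and 0 elsewhere. At this depth no change in either could be measured.

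**Figure D5:**
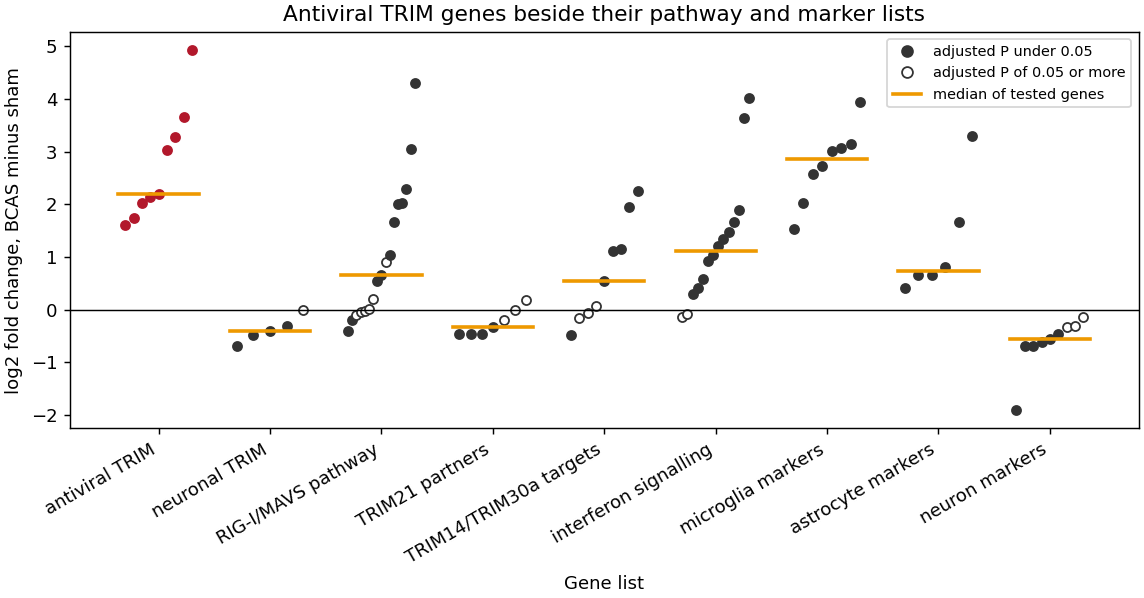
Log2 fold change (BCAS minus sham) of the tested genes of each list, with the list's median as an orange line. Filled circles have an adjusted P under 0.05 and open circles do not, and the antiviral TRIM genes are red. The median is 2.19 for the antiviral TRIM genes, 0.67 for the RIG-I and MAVS pathway, -0.33 for TRIM21 partners, 1.12 for interferon signalling and 2.87 for microglia markers.

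Markers of several cell types moved with the groups. All 8 microglia markers were DEGs higher in BCAS, where 8.47% of all tested genes were, with log2 fold changes of 1.54 to 3.95 and a median of 2.87, and their summed level was 309 to 321 CPM in sham mice, against 1826 to 2946 CPM in BCAS mice. BCAS mouse 3 had the highest sum. The antiviral TRIM genes summed to 9.02, 8.56 and 8.36 CPM per 100 CPM of microglia markers in sham mice 1 to 3, and to 6.26, 5.77 and 6.67 in BCAS mice 1 to 3. Relative to these markers the summed TRIM level was thus lower in every BCAS mouse than in any sham mouse. Trim30b, Trim30a, Trim30d and Trim14 had log2 fold changes above the microglia median, and the other 5 tested genes were below it. The part of microglial number or state in the TRIM levels was not tested.

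Markers of other cell types are set against the 18% of all tested genes that rose, the 13.2% that fell and the 8.47% that were DEGs higher in BCAS. All 6 astrocyte markers rose, 2 of them as DEGs (median 0.74), with sums of 3551 to 3916 CPM in sham mice, against 8365 to 8989 CPM in BCAS mice. Of 9 neuron markers, 6 fell (median -0.56) and Fibcd1, a marker of CA1 neurons, was a DEG at -1.91, where 0.999% of tested genes were DEGs lower in BCAS. Wfs1 of the same list, also a marker of CA1 neurons, did not pass (-0.30, SE 0.15), and its groups overlapped. The neuron sums were 7134 to 7666 CPM and 3958 to 5721 CPM. The 6 oligodendrocyte markers did not pass (median 0.11). Of 5 endothelial markers, 4 rose (median 0.52).

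Markers of blood-borne leukocytes were low in level. The 5 T cell markers had sums of 0.383 to 0.612 CPM in sham mice, against 5.70 to 6.31 CPM in BCAS mice. The 3 monocyte markers had sums of 0.449 to 0.670 CPM and 5.41 to 10.4 CPM. All 8 were DEGs, but the 5 T cell and 2 of the monocyte markers had at most 10 counts in every sham library and entered the test through BCAS alone. The remaining marker was Ccr2 (3.11). Of the 4 B cell markers 2 were tested and 1 rose, and of the 4 neutrophil markers 1 was tested and did not pass, with Ly6g at 0 counts in all libraries. The part of these cells in the TRIM levels was not tested.

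Genes with a pattern like that of the antiviral TRIM genes were sought by Pearson's r, over the 6 libraries, between their log2 CPM and the mean log2 CPM of the 9 tested genes. That mean was 0.912, 0.732 and 0.893 in sham mice and 3.11, 3.15 and 3.93 in BCAS mice. The 5 most alike were Pros1, Tmem154, Plod3 (r = 0.9997 each), Siglech (r = 0.9995) and Clic1 (r = 0.9993). Siglech is a microglial receptor. Pros1 measured 17.2, 15.2 and 16.2 CPM in sham mice and 56.7, 58.5 and 86.4 CPM in BCAS mice. It thus followed the same order, with BCAS mouse 3 above the others. The r is given as a description, since the 6 libraries fall into 2 separate groups, and 1727 of 15622 genes had r above 0.95 and 468 above 0.99. Plod3 stayed higher without BCAS mouse 3, but at 0.92 on the log2 scale.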

How the data were processed

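RNA-seq was measured in the right hippocampus of 3 sham and 3 BCAS mice, grouped and numbered by their labels. The BCAS files number their own columns 2 to 4 where the labels have 1 to 3, so that mouse numbers, and any pairing by them, rest on the labels. The authors trimmed the reads with Trim Galore, aligned them to mm10 with HISAT2 and assigned them to genes with featureCounts. They deposited raw counts, with no normalization. The methods name featureCounts 1.6.3, while the file headers name version 2.0.3 and GENCODE M20. Per the headers, each mate counted as a read, strand played no role and reads with several alignments were left out. Symbols were matched for 54723 of 54752 genes, and 29 were not matched.

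Genes were kept by filterByExpr and scaled with TMM factors, and BCAS was set against sham in the quasi-likelihood test of edgeR (R 4.3.3, edgeR 4.0.16, limma 3.58.1, DESeq2 1.42.0) over 18617 genes with Benjamini-Hochberg adjustment. Log2 CPM used a prior count of 2. RPKM is CPM per kilobase of the files' exonic length. P values set the group difference against the variation among libraries of a group, 1 from each mouse, estimated with information from all genes. They cover no other source of error. The steps were tested on simulated data for BCAS against sham (18617 genes, 200 changed): edgeR recovered 76% of genes changed by 1 and 98% of those changed by 2 on the log2 scale, with 12 false calls.

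The 10 genes and all lists were chosen with earlier results of these data known. Named are the 10 genes, the 5 highest and 5 lowest other TRIM genes that passed, each DEG of a pathway list or, without any, its largest change that passed, the tested genes of the chromosome 7 cluster and the 5 genes most alike in pattern. Alternatives were DESeq2, limma-voom, RLE factors, library totals, no filter, a filter at a mean of 10 counts, counts halved, glmTreat, a replicate block and leaving out each mouse. Transcript stretches shared between genes were found in a later GENCODE release of the same build, and promoters were taken from RefSeq. The values of 1 gene of the interferon list are not reported here. Protein sequences, single-cell data, qRT-PCR and histology were not analysed here.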

Additional observations from a re-analysis of the deposited data

How the results depend on the processing

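All 9 tested antiviral TRIM genes passed under DESeq2, limma-voom, RLE factors, library totals, a filter at a mean of 10 counts, counts halved and without any single mouse. With glmTreat 8 passed (Trim21 did not). With no filter 10 passed, as Trim30c entered the test, with few counts and all of them in BCAS. Its call is not taken as support for a difference. Of 660 values of the 44 named genes under the alternatives, 631 kept their direction and call, 29 lost the call and 0 reversed. Among other TRIM genes 15 passed, but 1 with glmTreat, which asks for more than a log2 change of 1, and 8 to 15 without single mice, lowest without sham mouse 3 (8) and sham mouse 2 (9). Those that fell numbered 10, but 6, 4 and 3 without sham mouse 1, 2 or 3 and 6 without BCAS mouse 1. Of the pathway genes 33 passed, 13 with glmTreat and 27 to 33 without single mice. The cause of these losses was not tested.

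Replicate numbers did not pair mice, as same-numbered mice had residual correlations of 0.036, -0.314 and -0.158. With the replicate number as a block, 9 antiviral TRIM genes, 12 other TRIM genes and 32 pathway genes passed, and calls over all genes went from 5819 to 4532.

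With 3 mice a group, single mice weigh on small changes, and Trim30b, Trim30c and the interferon genes are limited by depth.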
